A study of Homo sapiens with 8 samples.

Results

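H460C cells, spheres with cancer stem cell (CSC) properties, were compared directly with H460R cells, the cisplatin-resistant cells of the same line. Both populations derive from H460, an established human non-small-cell lung cancer (NSCLC) line. H460C cells had been selected from H460 as floating spheres, in nonadherent culture in a defined medium without serum that held albumin, N2 supplement, EGF and FGF-b. H460R cells had survived a single exposure to 0.5 μg/mL cisplatin for 72 h and were then kept without the drug in RPMI medium with fetal bovine serum, as parental H460 cells were. Neither population carries a transgene, and the labels give no time in culture. Medium, serum, attachment, growth factors and drug history therefore changed together, and their parts cannot be told apart. The arrays of each population also shared a slide that held no array of the other, and this cannot be told apart from the population.

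RNA of H460C (2 samples) and of H460R (2 samples) was hybridized on 8 whole-genome arrays with 2 colors, always together with RNA of H460 cells and with the dyes swapped between the 2 arrays of a sample. The 2 arrays were averaged into 1 log2 ratio over H460 RNA. The difference H460C minus H460R of these ratios cancels H460 where its channel read alike on the arrays of both populations. A difference of 1 on the log2 scale is then a 2-fold higher RNA level in H460C. The H460 channel did not read alike for every gene. For DSP it was above background on 4 arrays of H460C and on 0 of H460R. A probe was a member of the comparison when it was well above background, by the mark of the scanning software, in every H460C channel or in every H460R channel. This kept 26013 of 41000 probes, for 20310 of 32642 genes and unnamed transcripts. Of these, 22723 were well above background in every channel of both populations, 2370 in every channel of H460C only and 920 in every channel of H460R only. A ratio was missing on at least 1 array for some, where a spot was marked as an outlier, and 24340 probes with all 4 ratios entered the test. Each gene was read from its brightest probe, which gave 19377 genes and unnamed transcripts, 11823 of them with a symbol.

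Cancer cells grown as spheres in serum-free medium are a common model of CSCs, since the cells that survive without attachment can renew themselves and start tumors. Cells without serum receive no lipoprotein cholesterol and make their own sterols under the control of the SREBP transcription factors. Cells in the center of a sphere are far from oxygen, and low oxygen stabilizes the HIF factors that switch on glycolysis. Attached cells, in contrast, hold to laminin, fibronectin and collagen through integrins. Cisplatin crosslinks DNA, and the damage activates p53 and stops the cell cycle.

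Genes were called with limma on the 4 ratios, by a two-sided Benjamini-Hochberg adjusted p under 0.05 over all tested probes and a difference of at least 1 on the log2 scale. In H460C, 620 genes were higher (3.20% of 19377) and 863 were lower (4.45%), and 1483 were called in all (7.65%). The adjusted p alone passed 12701 genes (65.5%), 33.5% higher and 32.0% lower, so the minimum difference sets most of the calls. The differences ran from -5.44 to 4.18, with a median of 0.015 and a median size of 0.255. The spread was small between the samples of a population. The median absolute difference between replicates was 0.035 for H460C and 0.075 for H460R. The replicate difference of H460C had a correlation across probes of 0.023 between the dye orientations (0.21 for H460R), so the difference between the H460C samples was within hybridization noise, and they may be counted as 1 sample. With H460C averaged into 1 sample, 1479 of the 1483 genes remained called. Here p-values and standard errors (SE) measure only the spread between these RNA samples. Those given below count the H460C samples separately. If these samples are in fact 1 sample, the p-values below are too small. They are then no measure of replication between H460C cultures.

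The difference was measured in each dye orientation on arrays of its own. The values of the tested probes correlated with r = 0.94 across probes, which are no independent replicates. All 1483 called genes had one sign in both orientations, against 84.1% of the tested genes. A call requires a mean over both orientations of at least 1 in size, so this agreement was largely set by the calling rule. Orientations differed by over 1 on the log2 scale for 20 called genes (1.35%), and the median gap was 0.125. One of them was TRIB3, a pseudokinase of the stress response, with 2.43 in Cy3 and 1.06 in Cy5. Its spot was saturated in H460C on all 4 arrays.

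**Figure D1:**
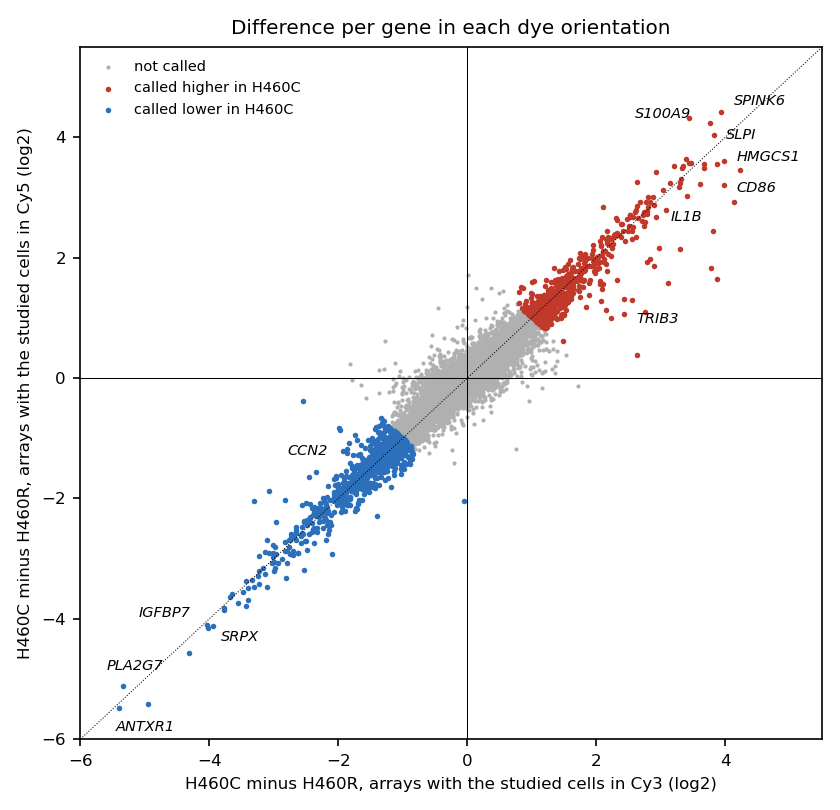
Difference H460C minus H460R per gene (log2), from the arrays with the studied cells in Cy3 (x axis) against those with the studied cells in Cy5 (y axis), for 19377 genes. Each point is a gene, colored when called higher or lower in H460C, and the dotted line marks equal values. The 620 and 863 called genes lie in the quadrants of one sign, and TRIB3 (2.43 and 1.06) lies off the line.

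Epithelial markers were used to check the label of a lung cancer line. KRT8, KRT18 and KRT19, the keratins of simple epithelia, were well above background in every channel of both populations, while KRT7 was in none. EPCAM, an epithelial adhesion molecule, was above background on all 4 H460C arrays and on 3 of the 4 H460R arrays. CDH1 (E-cadherin), which holds epithelial cells together, was above background on all 4 H460C arrays and on none of H460R. Of 6 leukocyte markers, PTPRC and LYZ were above background in no studied channel, and CD14, CD3E and CD68 were in every one without being called. CDH5 of endothelial cells and HBB of red blood cells were in none, while PECAM1 and HBA1 were on all 4 H460C arrays without a call. Of 6 fibroblast markers, LUM was lower in H460C (difference -2.19), COL3A1 was higher (1.89), PDGFRB gave 0.68 without a call, DCN was above background on all 4 H460R arrays and on 1 of H460C, and COL1A2 was above background on 1 H460C array. In RNA of whole cultures, fewer cells with a transcript and less of it per cell cannot be told apart.

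The 12 genes with the largest positive differences among those well above background in every channel included SLPI, HMGCS1, LOXL2, CA9, IL1A and IL1B. SLPI, a secreted inhibitor of leukocyte elastase, had log2 ratios over H460 of 3.21 and 3.34 in H460C and of -0.64 and -0.67 in H460R. The difference was 3.93 ± 0.058 (SE), or 15.2-fold (limma adjusted p = 1.09e-06), and its second probe gave 3.42. LOXL2, a lysyl oxidase that crosslinks collagen, had ratios of 2.69 and 2.72 in H460C and of -0.82 and -0.93 in H460R, a difference of 3.58 ± 0.055. MYB, a transcription factor of progenitor cells, had ratios of 3.50 and 3.52 in H460C against 0.015 and 0.14 in H460R (difference 3.43). The 12 genes were chosen by the size of their difference, so the distance between the populations follows from the choice. The other genes of this group were NGEF, an exchange factor of neurons (difference 3.52), UGT1A6, a glucuronosyltransferase (3.51), NPTX1, a neuronal pentraxin (3.51), PAEP, the secreted glycodelin (3.41), and MTMR11, a myotubularin-like protein (3.27). The second probe of NPTX1 gave 1.495, and that of UGT1A6 2.16. UGT1A transcripts share their downstream exons, so the probe may not be specific for UGT1A6.

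The largest difference of all was negative. ANTXR1, a collagen-binding receptor at the cell surface, had ratios of -3.81 and -3.75 in H460C against 1.67 and 1.66 in H460R. It was 43.3-fold lower in H460C (difference -5.44 ± 0.047, adjusted p = 9.29e-07), and a second probe gave -3.47. PLA2G7, the secreted enzyme that inactivates platelet-activating factor, had ratios of -4.71 and -4.89 in H460C and of 0.41 and 0.45 in H460R, a difference of -5.23 ± 0.069 (37.5-fold). SRPX, a sushi-repeat protein of the cell surface, was at -3.40 in both H460C samples and at 0.72 and 0.67 in H460R (difference -4.09). The other genes among the 12 lowest were IGFBP7 (-4.03), the activin antagonist FST (-3.82), LYPD1 (-3.80), the small GTPase RAB39B (-3.66), the collectrin gene CLTRN (-3.64), PCDH20 (-3.62), ANXA3 (-3.61), KCTD16 (-3.55) and the collagen IV peroxidase PXDN (-3.51). A second probe of KCTD16 gave -0.86. For the others with a second probe, LYPD1 and RAB39B, it gave -2.25 and -2.50.

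**Figure D2:**
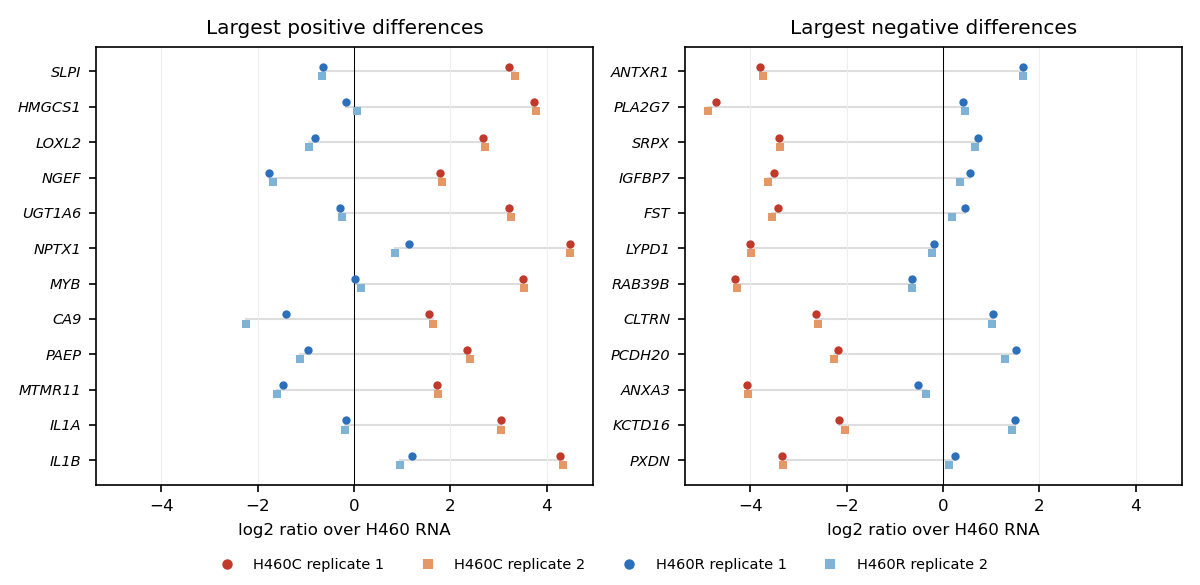
Log2 ratio over H460 RNA (x axis) of the 12 genes with the largest positive (left) and the 12 with the largest negative (right) difference H460C minus H460R, among called genes well above background in every channel of both populations. Each symbol is 1 RNA sample, the mean of its 2 dye-swapped arrays, and no error bar is drawn. The H460C and H460R samples are apart for every gene shown, which the choice of genes sets. CA9 has the widest gap between the H460R samples (-1.41 and -2.24).

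Of the 1483 called genes, 51 were below background on every array of the other population, so their differences have no measured level on one side. For these, the fold from the ratios is given with a bound from the single channels, taken against the dimmest signal still well above background. SPINK6, an inhibitor of kallikreins of the skin, was 18.2-fold higher in H460C by the ratios and 49.4-fold by the single-channel bound. CD86, a costimulatory ligand best known from antigen-presenting cells, had ratios of 3.42 and 4.01 in H460C and of 0.12 and 0.125 in H460R, or 12.1-fold, with a single-channel bound of 43.1-fold. A second probe of CD86 was below background on all arrays. S100A9, a calcium-binding subunit of calprotectin, gave 16.03-fold by the ratios and a bound of 40.2-fold, and FGFBP1, a carrier of fibroblast growth factors, gave 12.3-fold and 14.8-fold. The bounds lie above the folds from the ratios, so they hold on the single-channel scale only. For SPINK6, CD86 and S100A9 the H460 channel itself was above background on all 4 arrays of H460C and on 0 of H460R. In the other direction, MYPN, a sarcomere protein, was 4.61-fold higher in H460R by the ratios (bound 4.52-fold) and the copine CPNE4 3.92-fold (bound 3.79-fold). A second probe of MYPN gave a smaller log2 difference, -0.685, without a call. FGF14 gave 2.89-fold (bound 3.78-fold) and GUCY1A2, a subunit of soluble guanylate cyclase, 2.67-fold (bound 2.997-fold).

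Of the 1483 called genes, 359 had other tested probes. For 138 of these every other probe was called alike, and for 0 a probe was called in the opposite direction. Values of an uncalled second probe are given beside the genes below where they were far from the brightest one.

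To describe pathways, 33 lists of genes were used, with 785 genes in all. They were drawn from general knowledge, but with earlier results of these data known. Of these, 621 were tested, 92 were not well above background, 49 lacked a ratio on an array and 23 were not found on the array. Among the 621, 97 (15.6%) were called higher and 82 (13.2%) lower, against 3.20% and 4.45% of all tested genes. Because of how the lists were chosen, the larger shares are no test of them. Every list count below stands beside the same 3.20% higher and 4.45% lower of all tested genes.

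**Figure D3:**
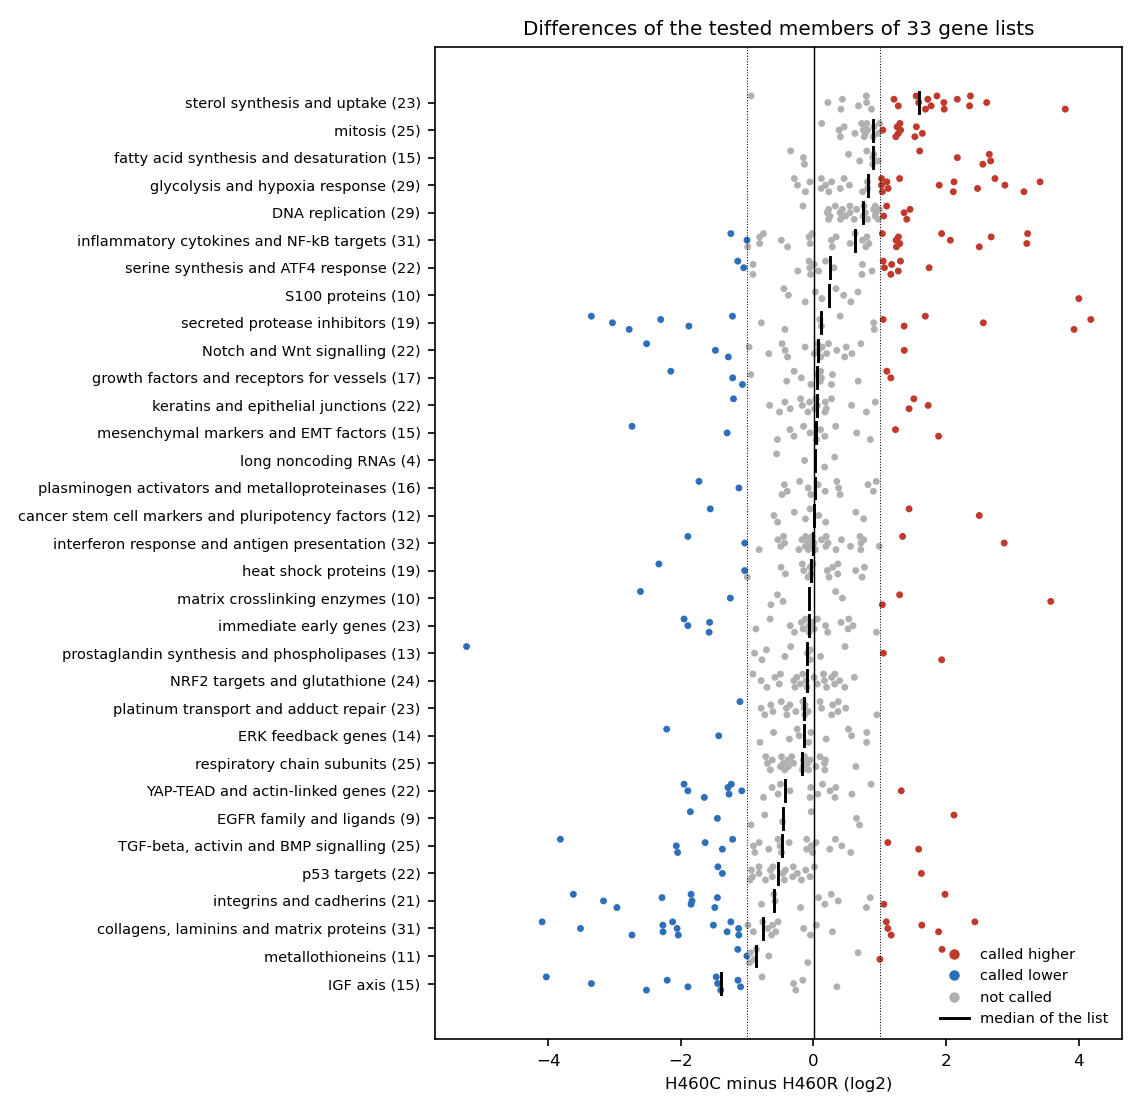
Difference H460C minus H460R (log2, x axis) of the tested members of 33 gene lists, ordered by the median of the list (black bar), with the number of members in parentheses. Each point is a gene, colored by its call, the dotted lines mark -1 and 1 and the full line the median of all tested genes (0.015). Sterol synthesis lies at the top (median 1.59) and the IGF axis at the bottom (-1.40).

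Enzymes of the cholesterol pathway were higher in H460C from the entry of acetyl-CoA to the last reductions. Of 25 listed genes, 23 were tested and 15 were called higher and 0 lower, against 3.20% and 4.45% of all tested genes, and the median difference was 1.59. HMGCS1, which makes HMG-CoA, had ratios of 3.74 and 3.77 in H460C and of -0.16 and 0.07 in H460R. The difference was 3.80 ± 0.080, or 13.9-fold (adjusted p = 1.74e-06), with 3.25 in its second probe, and the brightest probe was saturated on 2 of the 4 H460C arrays. ACAT2, the cytosolic thiolase that supplies it, had ratios of 3.16 and 3.25 in H460C against 0.44 and 0.74 in H460R (difference 2.61). Both genes were named for their large differences, so the lack of overlap between their groups was set by the choice.

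The steps to isoprenoids and squalene followed with MVD (1.78), IDI1 (1.69) and FDPS. FDPS, the farnesyl diphosphate synthase, was saturated on all 4 arrays of H460C and was at least 2.34-fold higher there. SQLE, the first oxygen-dependent enzyme of the pathway, had ratios of 2.66 and 2.61 in H460C and of 0.18 and 0.39 in H460R, and the difference was 2.36. The later enzymes gave 2.37 for CYP51A1, 1.97 for SC5D, 1.86 for MSMO1, 1.73 for HSD17B7, 1.59 for EBP (saturated on 3 H460C arrays), 1.55 for LSS and 1.28 for DHCR7. INSIG1, which holds the SREBP pathway back in the endoplasmic reticulum when sterols suffice, had ratios of 2.78 and 2.77 in H460C and of 0.55 and 0.66 in H460R (difference 2.17). The 8 members that were not called ran from -0.94 (PMVK, the kinase before MVD) to 0.88 (NSDHL). Among them was SREBF2, the factor behind the program (0.42). Without any of the 4 RNA samples in turn, 15 to 16 members were called higher.

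Fatty acid genes gave the same direction with fewer calls. Of 15 tested members, 5 were higher and 0 lower, and the median was 0.90. FA2H, which hydroxylates fatty acids for sphingolipids, had ratios of 2.28 and 2.30 in H460C against -0.48 and -0.29 in H460R (difference 2.67). ACSS2, which makes acetyl-CoA from acetate, had ratios of 2.12 and 2.15 in H460C against -0.41 and -0.63 in H460R (difference 2.65), and 2.77 in its second probe. The desaturases SCD (2.56) and FADS1 (1.60) and INSIG1 made up the other calls. A second probe of SCD gave 1.04, and the call was lost without H460C replicate 1, where another SCD probe was read (0.98). FASN, the fatty acid synthase itself, gave 0.91 and ACACA, the carboxylase before it, 0.81. SREBF1, the SREBP of this branch, gave -0.14.

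**Figure D4:**
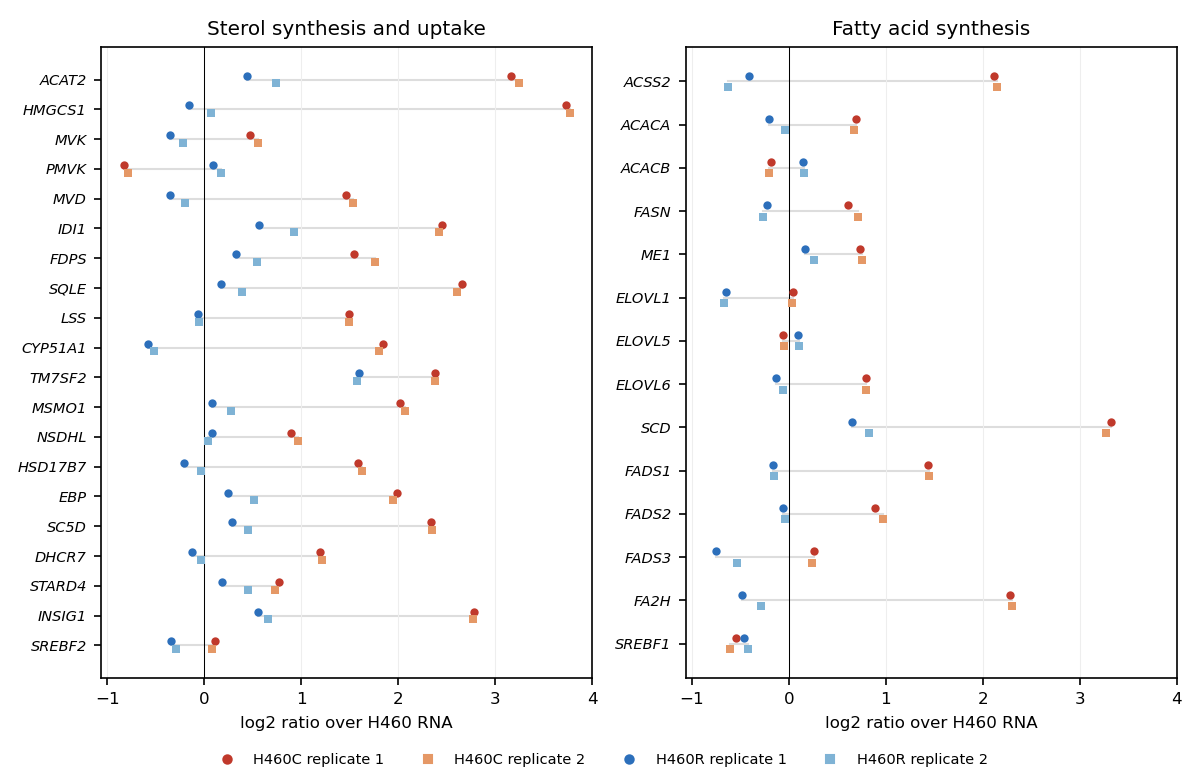
Log2 ratio over H460 RNA (x axis) of tested genes of sterol synthesis and uptake (left, enzymes from the first step down, then uptake and regulators) and of fatty acid synthesis (right). Each symbol is 1 RNA sample and no error bar is drawn. H460C lies right of H460R for the sterol genes shown, with PMVK (-0.94) as the exception.

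Part of the hypoxia-responsive genes and glycolytic enzymes was also higher in H460C. Of 29 tested members, 14 were higher and 0 lower, with a median of 0.82. CA9, a carbonic anhydrase of the cell surface and a common marker of hypoxia, had ratios of 1.56 and 1.63 in H460C and of -1.41 and -2.24 in H460R. The difference was 3.42 ± 0.25 (10.7-fold, adjusted p = 8.17e-05), with the spread on the H460R side. NDRG1, a stress-responsive gene, had ratios of 2.20 and 2.22 in H460C against -0.88 and -1.06 in H460R (difference 3.18), though a second probe gave 0.76. ANKRD37 had ratios of 2.57 and 2.63 in H460C and of -0.32 and -0.27 in H460R, a difference of 2.89. EGLN3, the oxygen sensor that marks HIF for decay, gave 2.74.

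Isoforms of the glycolytic enzymes differed from each other. HK2, the inducible hexokinase, gave 2.48, the glucose transporter SLC2A3 2.12 (0.66 in its second probe), PFKFB4, which sets the level of an activator of phosphofructokinase, 2.11, and ALDOC 1.90. ALDOA, LDHA and HK1, the widely expressed forms, gave -0.29, -0.12 and -0.05 and were not called. PGK1 was saturated on all 4 H460C arrays and gave 0.18, and a dimmer probe of it gave 1.46. VEGFA, the angiogenic ligand, was called at 1.11, with 0.55 to 0.91 in its other probes, and without H460R replicate 2 its difference fell to 0.98, below the minimum. ANGPTL4 (0.97 without H460R replicate 1) and ENO2 (0.93 without H460R replicate 2) behaved likewise. ADM, another HIF target, gave 0.12 (adjusted p = 0.0883).

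The promoters of these genes were searched for ACGTG, the core letters that HIF binds, on both strands, in 300 bases from 250 before to 50 after the RefSeq start (GRCh38.p14). Of 25 tested members with a promoter in the RefSeq set, 11 held it, and 7 of the 10 called higher did, against 21.6% of all 27305 promoters. The letters are part of the E-box CACGTG, which other factors bind. The promoters of CA9 and ANKRD37 are shown because they belong to the most changed members, with the letters found in capitals. They lie on the plus strand at chr9:35673678-35673977 and chr4:185396591-185396890.
CA9: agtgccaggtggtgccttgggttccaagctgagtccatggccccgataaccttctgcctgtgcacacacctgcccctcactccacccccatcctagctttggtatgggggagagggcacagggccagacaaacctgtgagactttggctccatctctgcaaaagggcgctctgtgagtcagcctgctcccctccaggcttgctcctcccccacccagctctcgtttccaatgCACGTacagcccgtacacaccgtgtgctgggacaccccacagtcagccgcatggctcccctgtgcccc
ANKRD37: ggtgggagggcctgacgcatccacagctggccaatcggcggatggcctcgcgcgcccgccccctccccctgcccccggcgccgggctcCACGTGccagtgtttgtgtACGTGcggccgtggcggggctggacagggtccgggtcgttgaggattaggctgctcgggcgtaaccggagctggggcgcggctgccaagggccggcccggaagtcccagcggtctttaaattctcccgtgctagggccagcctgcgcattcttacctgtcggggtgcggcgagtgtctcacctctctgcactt
In CA9 the match starts at -18 from the start site and reads on the minus strand. ANKRD37 has 3 matches, of which those at -162 and -161 are the same E-box read on both strands, and the match at -143 stands apart. For the sterol genes, TCACNCCAC, a form of the sterol regulatory element, was found in 1 of 18 tested members (SREBF2) and in 0 of the 12 called higher, against 1.15% of all promoters. No match says only that these letters are not in this window.

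Genes of mitosis were higher in H460C as a group, each by a modest amount. Of 25 tested members, 9 were higher and 0 lower, the median was 0.90 and all 25 differences were positive, 24 of them with an adjusted p under 0.05 (33.5% of all genes were higher by that measure). CDC20, the activator of the anaphase-promoting complex, had ratios of 1.095 and 1.23 in H460C and of -0.52 and -0.44 in H460R, a difference of 1.64 ± 0.063. BIRC5 (survivin) had ratios of 1.46 and 1.47 in H460C against -0.22 and 0.05 in H460R (difference 1.55). Cyclins B1 (CCNB1, 1.53) and A2 (CCNA2, 1.24), the kinases PLK1 (1.32) and BUB1 (1.31), the checkpoint protein MAD2L1 (1.28), the spindle protein PRC1 (1.26) and ASPM (1.05) were the others. The H460R samples differed from each other for these genes. PLK1 had ratios of 0.14 and 0.46 in H460R, beside 1.61 and 1.62 in H460C. The list gave 12 calls without H460R replicate 2 and 8 without H460R replicate 1, when ASPM fell to 0.84. MKI67, which marks cycling cells, gave 0.41.

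DNA replication genes showed smaller differences of the same sign. Of 29 tested members, 5 were higher and 0 lower, with a median of 0.75, and 27 had an adjusted p under 0.05 with a positive difference. CDC45, part of the replicative helicase, had ratios of 2.36 and 2.33 in H460C and of 0.70 and 1.07 in H460R (difference 1.46). POLE2, a subunit of polymerase epsilon, had ratios of 1.89 and 1.87 in H460C and of 0.35 and 0.59 in H460R (difference 1.41). MCM7 (1.37), the clamp loader subunit RFC4 (1.105) and TK1 (1.06) were also called. The count rests on values near the minimum. It was 9 without H460R replicate 2 and 4 without H460R replicate 1, when TK1 fell to 0.91.

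Many mitotic genes carry the letters TTTGAA, the cell cycle gene homology region (CHR), near their start. It was found on either strand in 14 of 21 tested members of the mitosis list with a promoter (66.7%), and in 5 of the 8 called higher, against 15.4% of all promoters. The promoters of CDC20 and PLK1 are shown as called members that hold it, with the letters in capitals, on the plus strand at chr1:43358731-43359030 and chr16:23678639-23678938.
CDC20: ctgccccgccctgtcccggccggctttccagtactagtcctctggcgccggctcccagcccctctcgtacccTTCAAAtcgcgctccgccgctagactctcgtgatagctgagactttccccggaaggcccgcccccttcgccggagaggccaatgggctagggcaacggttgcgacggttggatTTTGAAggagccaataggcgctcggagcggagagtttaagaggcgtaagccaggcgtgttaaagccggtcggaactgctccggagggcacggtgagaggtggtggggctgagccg
PLK1: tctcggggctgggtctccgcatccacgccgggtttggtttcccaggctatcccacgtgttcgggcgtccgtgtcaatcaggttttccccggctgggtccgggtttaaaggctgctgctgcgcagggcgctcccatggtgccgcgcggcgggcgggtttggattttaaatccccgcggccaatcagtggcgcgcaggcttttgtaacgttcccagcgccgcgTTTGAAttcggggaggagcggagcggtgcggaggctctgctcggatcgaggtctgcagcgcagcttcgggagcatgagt
The matches start at -178 (minus strand) and -65 (plus strand) in CDC20 and at -29 in PLK1. The matches are descriptions of these letters and not measured sites.

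The insulin-like growth factor (IGF) axis was the list with the lowest median. Of 15 tested members, 0 were higher and 10 lower in H460C (4.45% of all tested genes were lower), with a median of -1.40. The binding proteins, which hold IGFs outside the cell, led the list. IGFBP7 had ratios of -3.51 and -3.64 in H460C and of 0.56 and 0.35 in H460R, a difference of -4.03 ± 0.083 (16.3-fold lower in H460C, adjusted p = 1.62e-06). CRIM1, a membrane protein with an IGFBP-like motif, had ratios of -2.14 and -2.15 in H460C against 1.32 and 1.1 in H460R (difference -3.35, and -1.99 in a second probe). IGFBP1 had ratios of -0.56 and -0.55 in H460C and of 2.08 and 1.86 in H460R, a difference of -2.52.

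PAPPA, the protease that cleaves IGFBP4 and frees IGF, gave -2.21, IGFBP3 -1.89, CCN3 -1.44 (-0.51 in its second probe), IGFBP2 -1.14 and IGFBP6 -1.10. On the side of the receiving cell, IRS1, the docking protein under the receptors, gave -1.47 and IGF2R, which clears IGF2, -1.40. IGF1R (-0.30), INSR (-0.16) and the ligand IGF2 (-0.27) were not called. IGFBP4 was the member with a positive difference, 0.36, and its H460R samples (1.71 and 1.21) differed more than the groups did (adjusted p = 0.0822). The ligand IGF1 was not well above background. Without each RNA sample in turn, 10 to 11 members were lower.

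**Figure D5:**
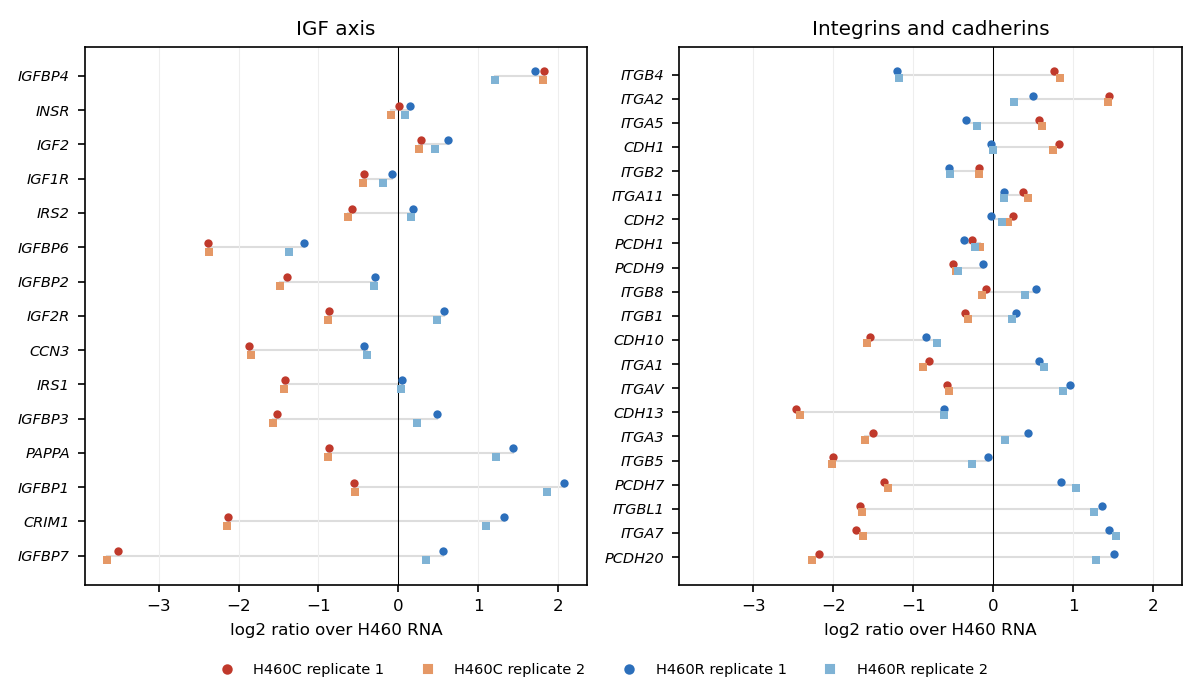
Log2 ratio over H460 RNA (x axis) of the tested members of the IGF axis (left) and of the integrins and cadherins (right), ordered by difference. Each symbol is 1 RNA sample and no error bar is drawn. H460C lies left of H460R for 14 of 15 IGF axis members, and for IGFBP4 the samples lie close together (1.82 and 1.81 against 1.71 and 1.21).

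Genes of the extracellular matrix differed in both directions. Of 31 tested members, 6 were higher and 13 lower in H460C, with a median of -0.76. Laminins and glycoproteins were among the members called lower. PXDN had ratios of -3.34 and -3.32 in H460C against 0.25 and 0.12 in H460R (difference -3.51). FBN1 and FBN2, the fibrillins of elastic microfibrils, gave -2.74 and -2.27. The laminin chains LAMC1 (-2.27), LAMA1 (-2.12) and LAMB1 (-2.06) and fibronectin (FN1, -1.30) were lower too, with FSTL1 (-2.04), FBLN1 (-1.25), THBS3 (-1.13) and FRAS1 (-1.12). A second probe of FBLN1 gave -0.068.

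The members called higher were collagens and 1 laminin chain. COL7A1, which makes the anchoring fibrils under epithelia, had ratios of 2.62 and 2.68 in H460C and of 0.26 and 0.17 in H460R (difference 2.44). COL3A1, a fibrillar collagen, gave 1.89 (0.59 to 0.80 in its other probes). LAMB3, the beta chain of an epithelial laminin, gave 1.64, while LAMA3, a partner chain, gave -0.91. The basement membrane chains COL4A1 (1.17) and COL4A2 (1.1), which share a promoter, and COL6A1 (1.12) completed the list. Among crosslinking enzymes, LOXL2 (3.58) and the prolyl hydroxylases P4HA2 (1.30) and P4HA1 (1.04) were higher, and FKBP10, a collagen chaperone (-2.61), and LOXL3 (-1.25, and -0.58 in a second probe) were lower.

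Integrins, which bind this matrix, and cadherins, which join cells, were tested as one list. Of 21 members, 2 were higher, 9 lower and 10 not called, with a median of -0.60. ITGA7, the alpha chain of a laminin receptor of muscle, had ratios of -1.72 and -1.63 in H460C and of 1.45 and 1.53 in H460R, a difference of -3.17 ± 0.056. The protocadherins PCDH20 (-3.62) and PCDH7 (-2.28), the integrin-like ITGBL1 (-2.96), ITGB5 (-1.85), ITGA3 (-1.85), CDH13 (-1.83), ITGAV (-1.49) and ITGA1 (-1.45) were the other members that were lower. ITGB4, the beta chain of hemidesmosomes, had ratios of 0.76 and 0.83 in H460C and of -1.21 and -1.18 in H460R (difference 1.99). ITGA2, a collagen receptor chain, was called at 1.06, with 0.27 and 0.49 in its other probes and 0.95 without H460R replicate 2. CDH1 was not called and was at least 1.72-fold higher in H460C, and CDH2 (N-cadherin) gave 0.17.

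Epithelial junction genes and mesenchymal genes did not move as blocks. Of 22 tested keratins and junction genes, the desmosomal DSP (1.73), the claudin CLDN4 (1.52) and EPCAM (1.44) were higher and KRT15 (-1.21) was lower, with a list median of 0.05. Those that were higher were above background on 3 of the 4 H460R arrays, and with probes kept only where every channel was above background 0 members were higher and 1 lower. Of 15 mesenchymal genes, COL3A1 (1.89) and SNAI1, a repressor of E-cadherin (1.24), were higher and FBN1 (-2.74) and FN1 (-1.30) lower, with a median of 0.045. The filament VIM was saturated on all 4 H460C arrays and gave 0.65 without a call, and the factors ZEB1, ZEB2 and SNAI2 gave 0.11, -0.29 and -0.54. Both medians changed sign under some settings of the processing.

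The list of secreted protease inhibitors gave calls in both directions. Of 19 tested members, 6 were higher and 6 lower, the latter with CRIM1, which is a membrane protein. SPINK1, an inhibitor of trypsin, had ratios of 2.86 and 2.93 in H460C and of 0.30 and 0.37 in H460R (difference 2.56), beside SPINK6, SLPI, SPINK13 (1.69), SERPINB2 (1.37) and TIMP1 (1.05, and 0.92 without H460R replicate 2). On the lower side were SERPIND1 (heparin cofactor II), with ratios of -2.66 and -2.62 in H460C against 0.48 and 0.31 in H460R (difference -3.03), CRIM1, the coagulation inhibitor TFPI (-2.78), SERPINB11 (-2.30), TIMP2 (-1.88) and SERPINB1 (-1.22). Of the proteases, MMP1, an interstitial collagenase, was saturated on all 4 H460R and on 2 H460C arrays and gave -1.12, with a call that was lost without H460R replicate 1 (-0.90). ADAM9 gave -1.73 and the urokinase PLAU 0.90.

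Inflammatory genes were higher for 11 of 31 tested members and lower for 2, with a median of 0.63. IL1B, the secreted interleukin-1, had ratios of 4.27 and 4.33 in H460C and of 1.21 and 0.96 in H460R, a difference of 3.22 ± 0.086 (9.30-fold). IL1A, its relative that stays bound to the cell, had ratios of 3.05 and 3.06 in H460C against -0.17 and -0.18 in H460R (difference 3.23). CXCR4, the receptor of CXCL12, had ratios of 2.97 and 2.98 in H460C and of 0.51 and 0.44 in H460R (difference 2.50), with H460 below background. Complement C3 (2.68), the NF-kB inhibitor NFKBIA (2.07), the prostaglandin synthase PTGS2 (1.93), CXCL14 (1.30), BIRC3 (1.28), CCL20 (1.25), SOD2 (1.25) and IL11 (1.04) were higher as well. The list did not move as one. TNFAIP3, a feedback inhibitor of NF-kB, was lower (-1.25, and -0.83 in a second probe), as was IL18 (-1.001), which lost its call without H460R replicate 2 (-0.94) or H460C replicate 1 (-0.998). IL6 (-0.99) and CXCL1 (-0.81) were below 0 and were called without H460R replicate 2 (-1.097 and -1.05), and CXCL5 gave -0.81. CXCL8 gave 0.27.

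Signaling by TGF-beta and activin and the YAP-TEAD and actin-linked genes were lower in part. Of 25 TGF-beta genes, 6 were lower and 2 higher, with a median of -0.48. The receptors TGFBR2 (-2.07) and TGFBR1 (-1.63), the latent binding protein LTBP1 (-2.05) and the ligands TGFB2 (-1.37) and BMP2 (-1.22) were lower with FST, which had ratios of -3.44 and -3.56 in H460C against 0.45 and 0.19 in H460R. The ligands TGFB3 (1.59) and INHBA, a subunit of activin (1.12, and 0.97 without H460R replicate 2), were higher. TGFB3 was above background on 3 of the 4 H460R arrays. With probes kept only where every channel was above background, 1 member of the TGF-beta list was higher. Of 22 YAP-TEAD and actin-linked genes, 7 were lower and 1 higher (CNN2, 1.33), with a median of -0.43. CCN1, a matricellular target of YAP, had ratios of -0.10 and -0.12 in H460C and of 1.77 and 1.81 in H460R (difference -1.89), and its other probes gave -1.93 and -1.92. CCN2 gave -1.95 with H460C ratios of -1.22 and -2.08, was above background on 3 of 4 H460C arrays, and lost its call without either H460R sample (adjusted p = 0.0784 and 0.0561). From single channels the difference of CCN2 had the other sign (1.28). ACTA2 (-1.65), MYL5 (-1.29), AMOTL2 (-1.27), TEAD1 (-1.24) and TPM1 (-1.08) were the others.

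Immediate early genes, which cells switch on within minutes of a stimulus, were lower for 4 of 23 members and higher for 0 (3 and 1 without H460R replicate 1). EGR1, a zinc finger factor, had ratios of 3.67 and 3.69 in H460C and of 5.27 and 5.24 in H460R, a difference of -1.57 ± 0.044 (adjusted p = 3.59e-06). DUSP1, a phosphatase of the MAP kinases (-1.57), and CCN1 and CCN2, the latter with the other sign from single channels, were lower, and JUN gave 0.22 (adjusted p = 0.0620). AKAP12, a scaffold of kinase A, gave 1.03, with 0.69 in a second probe and 0.97 without H460R replicate 2. In the EGFR family, the ligand EREG was higher (2.12), the ligands NRG1 (-1.86) and EGF (-1.45) were lower, and the receptor EGFR gave -0.73. The ERK feedback gene SPRY2 (-1.43) and the receptor EPHA4 (-2.21) were lower, and the 12 other ERK feedback genes were not called.

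Of 22 tested p53 targets, 1 was higher (4.55%, beside 3.20% of all tested genes) and 2 were lower (9.09%, beside 4.45%), with a median of -0.54. The lower count was 8 with the Feature Extraction log ratio, 7 from single channels and 6 from the Cy5 arrays. Of the 22, 18 had an adjusted p under 0.05 with a negative difference (32.0% of all genes did). PHLDA3, an inhibitor of AKT, had ratios of -0.55 and -0.54 in H460C and of 0.93 and 0.88 in H460R (difference -1.44). DDB2, which recognizes damage for nucleotide excision repair, had ratios of 0.21 and 0.20 in H460C and of 1.56 and 1.60 in H460R (difference -1.37). CDKN1A, the cell cycle inhibitor p21, gave -0.82, BAX -0.82, FAS -0.92 (-1.01 and called without H460R replicate 1) and MDM2 -0.42. PMAIP1 (NOXA), a BH3-only protein that other stress factors also induce, was the exception at 1.63. Among 23 genes of platinum transport and adduct repair, ABCC3, an efflux pump, was lower (-1.11), 1 of 23 beside 4.45% of all genes, and none was higher (1 without H460R replicate 2). The copper transporter SLC31A1, which also takes up cisplatin, gave 0.38 and ERCC1, a nuclease subunit of adduct repair, gave -0.35. Of 24 NRF2 targets and glutathione genes and of 25 respiratory chain subunits, limma with the minimum difference called 0 in either direction, as did Rank Products, with 1 lower NRF2 gene without H460R replicate 2 and 1 lower subunit without H460R replicate 1. With an adjusted p under 0.05 alone, 7 were higher and 10 lower among the former, and 2 and 16 among the latter.

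The serine and ATF4 list gave 7 higher and 2 lower of 22 members, with a median of 0.25. PSAT1, a serine synthesis enzyme, had ratios of -0.89 and -0.87 in H460C and of -2.21 and -2.17 in H460R (difference 1.31). TRIB3 was at least 2.07-fold higher in H460C, with 1.81 in its second probe. ATF5 (1.28), CBS (1.18), MTHFD2 (1.17), CEBPB (1.07, and 0.92 without H460R replicate 2) and SHMT2 (1.05) were higher, and the lipoprotein receptor VLDLR (-1.14) and STC2 (-1.05, with -0.71 in a second probe and -0.94 without H460R replicate 1) were lower. Metallothioneins, which bind zinc and platinum, went both ways. MT1F (1.94) and MT3 (1.0025) were higher, and MT2A (-1.14) and MT1B (-1.0025) were lower. MT1F was above background on 3 of the 4 H460R arrays. MT3 fell below the minimum difference without H460R replicate 2 (0.88) or H460C replicate 2 (0.975). The median of the 11 tested list members was -0.86, and the list also held MTF1 and SLC30A1, which are no metallothioneins. With probes kept only where every channel was above background, 1 member was higher. MT2A was saturated on 2 H460C and 3 H460R arrays, and its second probe gave -0.995 without a call. MT2A and MT1B lost the call without H460R replicate 1 (-0.995 and -0.86), when 0 members were lower, against 4 without H460R replicate 2, and sequences of this family are alike, so probes may read several members.

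Stem cell and developmental genes were called in both directions. Of 12 tested CSC markers and pluripotency factors, CXCR4 and EPCAM were higher and ALCAM (-1.56, and -0.52 in a second probe) was lower, CD44 gave -0.59 and MYC -0.12, and SOX2, NANOG, PROM1 and KIT were not well above background. Of 22 tested Notch and Wnt genes, the ligand WNT3 was higher (1.37), and the Wnt antagonist DKK1 (-2.52), the Notch target HES1 (-1.48, and -0.97 in a second probe) and the receptor FZD8 (-1.28) were lower. Of 17 genes for vessels, VEGFA and FGFR3 (1.17) were higher and NRP1 (-2.15, and -1.84 and -0.43 in other probes), VEGFC (-1.22) and VEGFB (-1.07) lower. Of 32 interferon and antigen presentation genes, the lysosomal reductase IFI30 (2.88) and BST2 (1.35) were higher. IFI6 (-1.89) and OAS1 (-1.04, and -0.99 without H460R replicate 1) were lower. That was 6.25% in each direction, beside 3.20% and 4.45% of all tested genes, and the median was -0.0063. Besides PTGS2 and PLA2G7, the prostaglandin list of 13 tested members held PTGES3 (1.06) as a call. Of 19 tested heat shock genes, the small chaperones CRYAB (-2.33) and HSPB3 (-1.04) were lower. HSPB3 lost its call with H460C averaged into 1 sample, without either H460C sample and without H460R replicate 2 (-0.74). MALAT1, a nuclear noncoding RNA, was saturated on all 4 H460C and on 3 H460R arrays and gave -0.56 without a call (adjusted p = 0.0130). Its other tested probes were not saturated and gave -0.74 and -0.345, also without a call. The S100 list of 10 tested members had S100A9 as its call.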

How the data were processed

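The authors hybridized RNA of H460C and H460R against H460 on 8 Agilent arrays and extracted spots with the Feature Extraction software. The main values were the deposited log2 ratios of the authors' processed table, already turned on swapped arrays. Their background correction and normalization are not given in the sources used here. Their column medians were -0.02 to 0, and their slopes on log2 ratios computed here from the scanner intensities (normexp and loess) were 0.911 to 1.13, with one sign on all arrays, so scale and direction were taken as stated. Their slopes on the log ratio of the scanning software, brought to log2, were 0.471 to 0.530, so that log ratio spreads wider. The deposited median intensities, not normalized, and the log10 ratio of the software (deposited without decimal points for 1 array, as a score, and divided by 10 to the power of 9) served as alternatives. The 0 or 1 marks for outliers, saturation and background were used as deposited.

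Outlier spots were set to missing and the 43376 spots averaged into 41000 probes. A probe counted as above background when at least 0.5 of its spots were. RefSeq names gave a symbol for 23958 of 25074 probes. limma (version 3.58.1, R 4.3.3, 2 residual and 3.90 prior degrees of freedom) tested all kept probes, and the fit was tested on simulated data. The methods' Rank Products were an alternative. Studied channels had 25868 to 28499 probes above background, and the number of arrays limits the precision. The members and lists were chosen with earlier results of these data known. Named genes were the 12 largest called differences in each direction, the 4 largest bounds, up to 2 called members of each list in each direction and 9 genes named by the study. Further list members were named after their values were seen, and some members that enter the counts are not reported here by name. Alternatives changed the source of the ratios, background, normalization, filter, dye, probes, samples and test. Same-numbered samples of the populations shared only a number (correlation of replicate differences 0.038).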

Additional observations from a re-analysis of the deposited data

How the results depend on the processing

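Genes higher and lower in H460C numbered 620 and 863. They were 594 to 686 and 872 to 893 when each RNA sample was left out, and 620 and 863 with the replicate number as a block, where all 1483 genes remained called. The Feature Extraction log ratio gave 1441 and 1795, with 1470 of the 1483 genes still called, the adjusted p alone 6496 and 6205, limma's treat against a difference of 1 343 and 516, and Rank Products 106 and 123. With the Feature Extraction log ratio, 10 in place of 5 genes were higher for replication and for fatty acids. By Rank Products, 5 sterol genes and 0 mitosis genes were called. The other alternatives gave 531 to 894 and 801 to 1062. These include 641 and 920 without the Cy5 array of H460C replicate 1, which had the lowest correlation (0.950) with the loess ratios computed from the scanner intensities, and 662 and 934 with outlier spots kept, both chosen after seeing the data. From single channels without H460, 1144 of the 1483 genes remained called and 4 had the other direction. There, the difference of CCN2 was 1.28 (adjusted p = 0.297) and the difference of ADM was -0.0050 (adjusted p = 0.979). Single-channel log2 levels of CCN2 were 9.15 in H460C and 7.87 in H460R, while its mean ratios over H460 were -1.645 and 0.305. The cause of the changed signs was not tested. Of the named genes' values under all alternatives, 148 lost a call and 1 gained one (MALAT1, adjusted p alone). List medians near 0 changed sign under some settings, and those of the sterol, glycolysis, mitosis, replication, IGF, matrix and integrin lists did not. Saturated and dim spots limit the size of differences, and 2 samples per population limit the precision.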

Other observations

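For 20 of 1483 called genes the dye orientations differed by over 1 on the log2 scale. Those with a symbol and the widest gaps were CTSL, the lysosomal cathepsin L (-2.56 with the studied cells in Cy3 and -0.38 in Cy5), AADAC, a lipid hydrolase (-0.05 and -2.04), PPP6R1, a phosphatase subunit (3.79 and 1.83), CABP7 (2.76 and 1.09) and IRX5, a homeobox factor (3.11 and 1.58). Their mean differences were -1.47, -1.05, 2.81, 1.92 and 2.34. CTSL was saturated on all 4 H460R and on 2 H460C arrays, CABP7 was below background in H460R, and second probes of PPP6R1 and IRX5 gave 0.078 and -0.32. The part of the dye in these values was not tested.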
